A study of Homo sapiens with 6 samples.

Results

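The genes described here make up the core of the splicing machinery and the proteins that steer it: the Sm ring, the proteins specific to the U1 and U2 particles, SF3A, SF3B, U2AF, PRPF, LSM, the SR proteins (SRSF) and the hnRNP proteins. Members were chosen by gene symbol alone, with no measured value in the rule, and 79 of the 18625 genes in the deposited table matched. They comprised 20 HNRNP, 13 LSM, 13 PRPF, 11 SRSF, 7 Sm ring, 6 SF3B, 4 U1 and U2 specific, 3 SF3A and 2 U2AF genes, and all 79 had a mean of at least 10 normalized counts. SNRPN, a close copy of SNRPB, was not analysed here.

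Gene expression had been measured by RNA-seq in NB4 cells, an established human line of acute promyelocytic leukemia that carries the PML-RARA fusion. One group received the solvent DMSO and the other Tan I at 10 μM, each for 3 days and each in 3 libraries. Tan I (tanshinone I) is a diterpene from the root of Salvia miltiorrhiza, and the series concerns this compound, blood formation and the histone methyltransferase EZH2. All libraries came from 1 cell line, and the labels do not say whether the replicates were separate cultures, so the p-values below rest only on the spread between these libraries. The main test also draws each gene's variance toward that of genes of similar level, so its SE and p-value do not reflect the gene's own spread alone.

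Pre-mRNA splicing is carried out by small nuclear ribonucleoproteins (snRNPs). A ring of Sm proteins is loaded on the U1, U2, U4 and U5 RNAs, U1 marks the 5′ splice site, and U2AF together with SF3A and SF3B places U2 at the branch point. The PRPF proteins build and activate the U4/U6.U5 particle, LSM rings hold U6 RNA or take part in mRNA decay, and SR and hnRNP proteins bind the transcript and favour or repress exons. Recurrent mutations of SF3B1, SRSF2 and U2AF1 are known in myeloid neoplasms, but the values here are gene levels and carry no information on mutation or on splice-site use.

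The libraries held 21502760 to 31679138 reads on the listed genes, of which 2.0 to 2.2% fell on the 79 members. The promyelocyte genes MPO, AZU1, PRTN3, CTSG, CD33 and CEBPE were all detected. MPO was at 60389 to 64107 normalized counts (reads divided by the size factor of each library) in DMSO and at 33279 to 39450 in Tan I, and its part in the results below was not tested. CTSG was also lower without overlap, at 1536 to 2392 in DMSO and 839 to 1496 in Tan I. AZU1, PRTN3, CEBPE and CD33 overlapped between the groups. Of the markers of other cell types, CD3E stayed at 8.7 to 20 normalized counts and CD3D, EPCAM, KRT8 and COL1A1 at 65.5 to 515. ELANE, MS4A1, COL1A2 and the erythroid and platelet genes on the list were not analysed here. DMSO replicate 2 and Tan I replicate 3 stood apart from most libraries: the first principal component of all genes held 70.8% of the variance and placed them at 41.1 and 71.6. Tan I replicate 2 lay between at 8.65, and DMSO replicates 1 and 3 and Tan I replicate 1 lay at -48.0 to -26.7. In DMSO replicate 2 and Tan I replicate 3 the nuclear RNA MALAT1 was at 3822 and 5469 normalized counts, against 9272 to 10652 elsewhere, and mitochondrial genes took 6.40 and 5.41% of the reads, against 3.99 to 4.67%. Since 1 of these libraries belongs to each group, each result below is read with this split in view.

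Promoters of the family members are shown first because the Sm ring and the U1 and U2 specific genes moved together across libraries, as described below. Of the SF3A and SF3B genes, 2 of 3 and 3 of 6 moved the same way. The motif shares of the snRNP and hnRNP genes are set side by side. RefSeq promoter sequences (GRCh38.p14) were matched for 68 of the 79 members and for 10509 of the genes tested, and the 250 bases before each start were searched on both strands for 11 short motifs. The ETS core CCGGAAG, a sequence that transcription factors of the ETS family bind, was found in 12 of the 18 promoters of the Sm ring, U1 and U2 specific, SF3A and SF3B genes (66.7%), in 30.9% of all members and in 16.4% of all promoters. CCAAT, the box that the factor NF-Y binds, was found in 15 of 19 HNRNP promoters (78.9%), in 47.1% of all members and in 35.1% of all promoters. It was also found in 6 of 9 PRPF promoters (66.7%) and in 5 of 10 LSM promoters. These 2 motifs were picked for display after the counts of all 11 were seen, and a match is a description of the letters, not evidence of a bound factor. The SRSF promoters held each of the 2 motifs in 2 of 10 cases (20%). The LSM promoters held the ETS core in 1 of 10 cases, and 9 of 13 LSM genes moved with the Sm ring. A link between motif and library pattern was not tested.

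**Figure D1:**
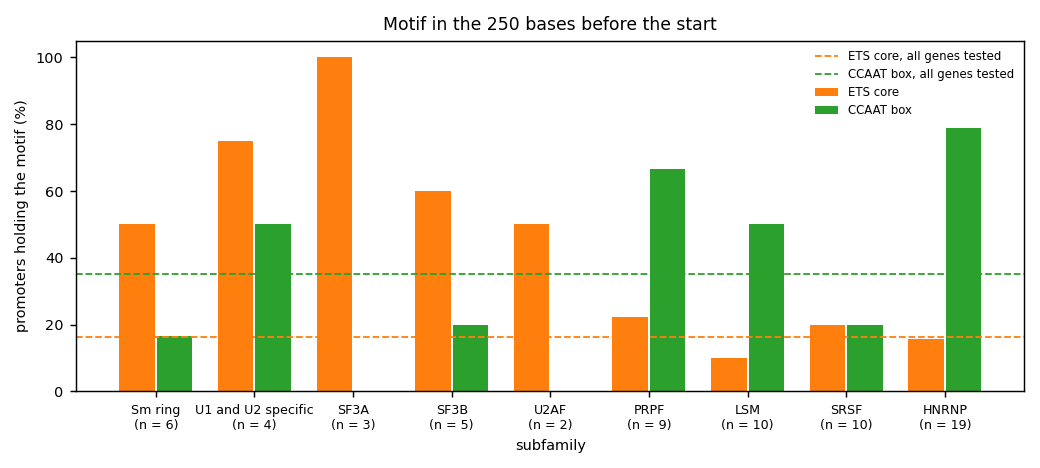
Share of promoters (%, y axis) that hold the ETS core or the CCAAT box within 250 bases before the RefSeq start, on either strand, by subfamily (x axis, n promoters matched). Dashed lines mark all genes tested, at 16.4% for the ETS core and 35.1% for CCAAT, and the ETS core peaks in SF3A and the U1 and U2 specific genes while CCAAT peaks in HNRNP.

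The 150 bases before the start are printed for 3 members with the ETS core (in capitals, CCGGAAG or its reverse complement CTTCCGG), chosen among those with no base inside an annotated exon. SNRPG encodes an Sm ring subunit (chr2:70293459-70293608, minus strand, the RefSeq start lying 282 bases inside the GENCODE canonical transcript), SF3B4 a subunit of SF3B (chr1:149927804-149927953, minus strand), and PRPF6 a bridging protein of the U4/U6.U5 particle (chr20:63980982-63981131, plus strand).
SNRPG: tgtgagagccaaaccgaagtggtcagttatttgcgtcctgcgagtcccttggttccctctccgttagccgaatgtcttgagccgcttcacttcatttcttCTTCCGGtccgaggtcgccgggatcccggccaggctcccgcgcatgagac
SF3B4: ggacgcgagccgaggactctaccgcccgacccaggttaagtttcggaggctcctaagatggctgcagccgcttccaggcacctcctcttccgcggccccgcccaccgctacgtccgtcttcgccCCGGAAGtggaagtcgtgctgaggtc
PRPF6: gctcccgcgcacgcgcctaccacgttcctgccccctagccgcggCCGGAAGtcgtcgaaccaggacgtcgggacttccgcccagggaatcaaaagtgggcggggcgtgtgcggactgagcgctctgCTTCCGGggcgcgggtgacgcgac
The ETS core lay 50 bases before the start in SNRPG and 26 in SF3B4, and PRPF6 held it on both strands, 106 and 24 bases before the start.

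For the HNRNP genes the 150 bases before the start are printed for 3 members with CCAAT (in capitals, or its reverse complement ATTGG) and no base in an annotated exon. They are HNRNPA0 (chr5:137754364-137754513, minus strand), HNRNPAB (chr5:178204383-178204532, plus strand) and HNRNPUL1 (chr19:41264222-41264371, plus strand).
HNRNPA0: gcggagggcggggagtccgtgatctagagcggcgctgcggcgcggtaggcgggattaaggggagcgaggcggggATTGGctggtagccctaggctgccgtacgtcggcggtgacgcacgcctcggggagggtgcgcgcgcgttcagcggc
HNRNPAB: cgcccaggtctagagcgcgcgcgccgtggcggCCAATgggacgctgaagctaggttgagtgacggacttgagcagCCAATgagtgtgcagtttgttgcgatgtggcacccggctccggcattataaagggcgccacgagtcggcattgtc
HNRNPUL1: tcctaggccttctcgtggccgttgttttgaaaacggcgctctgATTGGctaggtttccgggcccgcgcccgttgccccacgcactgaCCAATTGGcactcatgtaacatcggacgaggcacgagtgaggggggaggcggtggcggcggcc
HNRNPAB held 2 copies and HNRNPUL1 held 3, of which the last pair overlap on opposite strands.

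None of the 79 genes passed the test of a difference between Tan I and DMSO. By limma with Benjamini-Hochberg adjustment over 16887 genes, 0 members had an adjusted p of at most 0.05 (0% of all genes tested, of which 410 had an unadjusted p that low), and every member's adjusted p was 0.999. By a looser rule, which asked for an unadjusted p up to 0.05 and a log2 fold change of 0.25 or more in either direction, 0 members were called, against 2.42% of all genes tested. At an unadjusted p of at most 0.05 alone the count of members was also 0, against 2.43% of all genes tested. It was 0 as well with edgeR and with DESeq2 on the recovered reads, against 2.43 and 2.71% of all genes. With the score on the first principal component added as a covariate, 11 members (13.9%) reached an unadjusted p that low, against 15.4% of all genes tested, and 0 reached an adjusted p of at most 0.05. Without Tan I replicate 1 the looser rule called 6 members (PRPF31, LSM3, SNRPG, SNRPF, HNRNPUL2 and SNRPB), each higher in Tan I with an adjusted p of 0.532 by limma. These were 7.59% of the members, against 8.86% of all genes tested under the same setting.

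The members' differences were small and leaned to the Tan I side. The log2 fold change was above 0 for 60 of 79 members (75.9%) and for 49.7% of all genes tested, with a median of 0.10 over the members and -0.0016 over all genes. It ran from -0.20 in PRPF40B to 0.36 in LSM3. The count of members above 0 depended on the scaling and on 1 library: 46 members were above 0 after quantile normalization (median 0.02), 47 after scaling every library to an equal total (median 0.04) and 44 without Tan I replicate 3 (median 0.02). These values are of the members alone, and with an equal total the median of all genes also fell, as given in the last section. The 95% confidence interval of the difference lay within 1 log2 unit either way for 78 of 79 members, LSM3 being the exception with an upper bound of 1.02, and within 0.5 for 39 of 79. For all genes tested these shares were 73.1 and 28.7%. In 72 of 79 members the range of the log2 values was wider than the difference between the means in both groups. This held for 13800 of the 16887 genes tested.

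**Figure D2:**
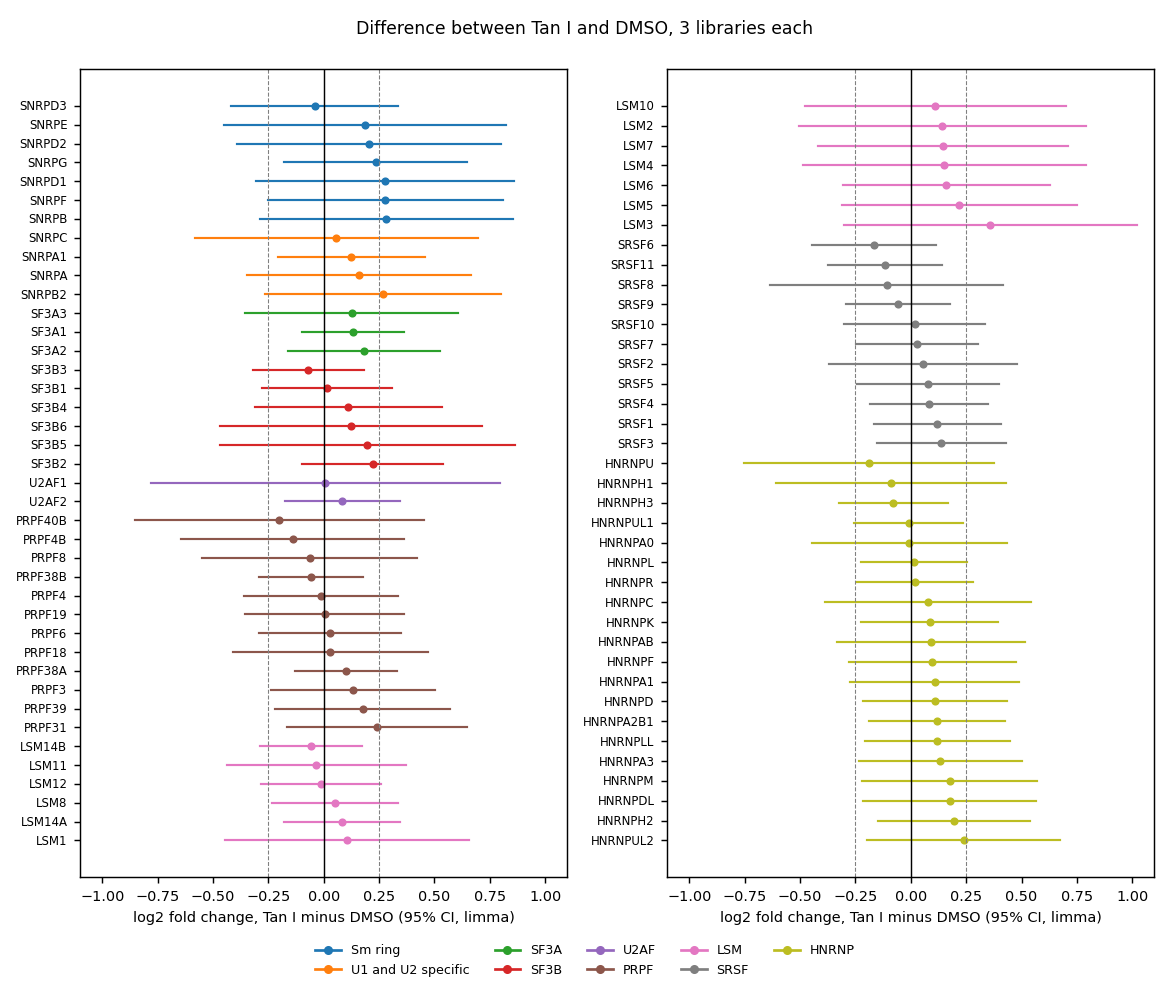
Log2 fold change of 78 of the 79 members, Tan I minus DMSO (x axis), with the 95% confidence interval from limma (bars), 3 libraries a group, coloured by subfamily. Dashed lines mark 0.25 either way, every interval drawn includes 0, and the point estimates run from -0.20 (PRPF40B) to 0.36 (LSM3).

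The libraries of the 2 groups did not overlap for 6 members. HNRNPA2B1, PRPF38A and SF3A1 had every Tan I library above every DMSO library, which held for 3.92% of all genes tested, and HNRNPH3, LSM14B and SRSF11 had every one below, which held for 3.97%. The exact two-sided permutation p was 0.1 for each, the smallest that 3 against 3 libraries allow. The 6 genes had narrow groups and small differences, from -0.12 (SRSF11) to 0.13 (SF3A1) on the log2 scale. After scaling every library to an equal total none of the 79 members separated, against 8.30% of all genes tested.

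On GRCh38 (GENCODE 44, exons of the canonical transcript) these genes are HNRNPA2B1 (chr7:26171151-26201529, minus strand, 11 exons), PRPF38A (chr1:52404602-52420836, plus strand, 10 exons), SF3A1 (chr22:30331988-30356919, minus strand, 16 exons), HNRNPH3 (chr10:68331174-68343193, plus strand, 10 exons), LSM14B (chr20:62122461-62135374, plus strand, 9 exons) and SRSF11 (chr1:70205682-70253052, plus strand, 12 exons). HNRNPH3 overlaps RUFY2 on the other strand and SF3A1 overlaps CCDC157, and since the strand setting of the counting is not given in the sources used here, reads of such partners may be shared. The same holds for SF3A2 with PLEKHJ1, PRPF31 with PRPF31-AS1, PRPF39 with FKBP3 and PRPF40B with FMNL3. It also holds for HNRNPA3 with NFE2L2 and for HNRNPAB with PHYKPL. HNRNPH2 and HNRNPUL2 overlap annotated read-through genes on their own strand.

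**Figure D3:**
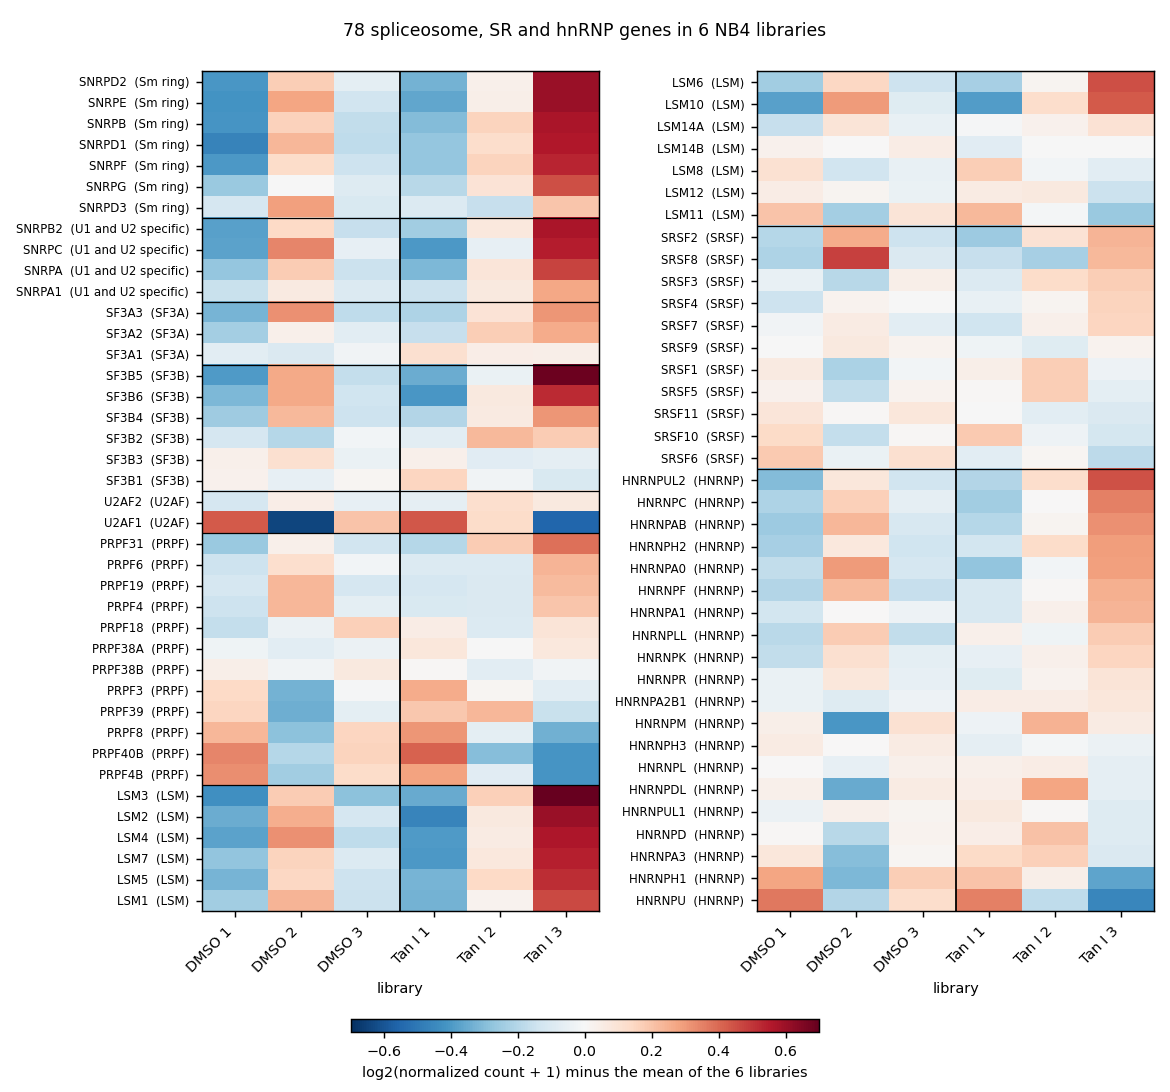
Log2(normalized count + 1) of 78 of the 79 members (rows, grouped by subfamily) in each of the 6 libraries (columns), minus the gene's mean over the 6 libraries. Most Sm ring, U1 and U2 specific and LSM genes are highest in Tan I replicate 3 and highest within DMSO in replicate 2, and U2AF1, PRPF4B and HNRNPU are lowest there.

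The Sm ring, the shared heart of the snRNPs, had the highest median log2 fold change of the subfamilies, 0.24 over 7 genes, with 6 above 0. SNRPB, a ring subunit, was at 4872, 7259 and 5747 normalized counts in DMSO replicates 1 to 3 and at 5250, 7236 and 9643 in Tan I replicates 1 to 3. Its highest value was in Tan I replicate 3 and its lowest in DMSO replicate 1, with the remaining libraries overlapping. The means were 5959 ± 1208 (SD, n = 3) and 7376 ± 2200 (SD, n = 3), and the log2 fold change was 0.28 with an SE of 0.24 (adjusted p = 0.999, limma). SNRPG, another ring subunit whose promoter is printed above, was at 2670, 3184 and 2996 in DMSO and at 2791, 3410 and 4370 in Tan I. Here too the groups overlapped, and the log2 fold change was 0.24 with an SE of 0.18.

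SNRPE and SNRPF were likewise highest in DMSO replicate 2 and Tan I replicate 3 within their groups. For SNRPE the values were 2093, 3385 and 2547 in DMSO and 2171, 2885 and 4253 in Tan I, and for SNRPF they were 3457, 4991 and 4122 in DMSO and 3774, 5090 and 6595 in Tan I. SNRPF had the highest level per length after SNRPD2 in the ring, 9270 ± 1703 normalized counts per kilobase of canonical transcript in DMSO (SD, n = 3), against 9442 ± 1867 for SNRPD2, and the 2 did not differ beyond their spread. SNRPD3 was the only ring gene whose mean was lower in Tan I, with 963, 1274 and 970 in DMSO and 978, 935 and 1196 in Tan I (log2 fold change -0.04, SE 0.16). Without Tan I replicate 3 the median of the ring was 0.07, and without Tan I replicate 1 it was 0.42. SNRPG has 20 annotated pseudogenes, SNRPE 10 and SNRPB 1, and reads that mapped to several places had been removed, so the counts of these genes may be incomplete.

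Of the 4 proteins specific to U1 or U2, all had a log2 fold change above 0, with a median of 0.14. SNRPB2, which binds a stem loop of U2 RNA, was at 1811, 2601 and 2105 in DMSO and at 1991, 2477 and 3507 in Tan I (log2 fold change 0.27, SE 0.23). SNRPA1, its U2 partner, had the highest level per length of the group, 5146 ± 408 normalized counts per kilobase in DMSO (SD, n = 3) and 5641 ± 824 in Tan I. SNRPC, the U1 protein that contacts the 5′ splice site, was at 2683, 4416 and 3347 in DMSO and at 2629, 3343 and 5086 in Tan I, a 1.93-fold range over 6 libraries against a log2 fold change of 0.06. The groups overlapped in every one of these genes. SNRPC has 18 annotated pseudogenes, and its difference turned to -0.20 without Tan I replicate 3, as the median of the 4 genes turned to -0.0077.

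SF3A and SF3B, the U2 subcomplexes that clamp the branch point, had medians of 0.13 and 0.12. SF3A1, a scaffold of SF3A, was at 3125, 3073 and 3234 normalized counts in DMSO and at 3563, 3399 and 3382 in Tan I. All 3 Tan I values lay above all 3 DMSO values, and the log2 fold change was 0.13 (SE 0.10, 95% CI -0.10 to 0.36, unadjusted p = 0.218, adjusted p = 0.999, limma). SF3A2 and SF3A3 overlapped between the groups, with log2 fold changes of 0.18 (SE 0.15) and 0.13 (SE 0.21). SF3A3, at 3016, 4716 and 3344 in DMSO and at 3262, 4041 and 4686 in Tan I, was high in DMSO replicate 2 and Tan I replicate 3.

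SF3B2, which binds U2 near the branch point with SF3B4, had the smallest unadjusted p of the 79 members, 0.147 by limma (adjusted p = 0.999). It was at 14551, 13752 and 15581 in DMSO and at 14981, 18458 and 17839 in Tan I, so that Tan I replicate 1 fell inside the DMSO range and the other two lay above it. Its means were 14628 ± 917 and 17093 ± 1855 (SD, n = 3), and the log2 fold change was 0.22 with a 95% CI of -0.10 to 0.54. SF3B1, the largest subunit and a known site of leukemia mutations, was at 15475, 14559 and 15302 in DMSO and at 16846, 14895 and 14113 in Tan I, and its log2 fold change was 0.01 (SE 0.12, 95% CI -0.28 to 0.31). SF3B3 had the lowest value of the group, -0.07 (SE 0.11). The small subunits SF3B5 and SF3B6 varied 2.12-fold and 1.90-fold over the 6 libraries, and without Tan I replicate 3 the median of SF3B turned to -0.04.

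U2AF1 and U2AF2 form the dimer that reads the 3′ splice site, and their spread between libraries is given side by side. U2AF2 kept within a 1.18-fold range, at 4479, 5019 and 4679 in DMSO and at 4659, 5273 and 5104 in Tan I (log2 fold change 0.08, SE 0.11). U2AF1 was at 1603, 762 and 1367 in DMSO and at 1608, 1301 and 809 in Tan I, a 2.11-fold range. DMSO replicate 2 and Tan I replicate 3 were the lowest, and the means of 1244 ± 434 and 1239 ± 403 (SD, n = 3) gave a log2 fold change of 0.0065 with a 95% CI of -0.78 to 0.79. Leaving out 1 library at a time moved that value from -0.31 (without DMSO replicate 2) to 0.29 (without Tan I replicate 3). A near-identical copy, U2AF1L5, was listed at 13.5 to 25.4 normalized counts, and reads shared by both would have been removed, so the U2AF1 counts may be incomplete.

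The 13 PRPF genes had a median log2 fold change of 0.02, with 8 above 0 and 5 below. PRPF31, which joins U4/U6 to U5, was at 742, 911 and 810 in DMSO and at 774, 1006 and 1160 in Tan I (log2 fold change 0.24, SE 0.17). PRPF38A, needed when the spliceosome is activated, was at 2916, 2825 and 2890 in DMSO and at 3145, 2967 and 3135 in Tan I. Its groups did not overlap, and the log2 fold change was 0.10 (SE 0.10). PRPF3, a U4/U6 protein, had the highest level per length of the family, 1323 ± 213 normalized counts per kilobase in DMSO (SD, n = 3) and 1444 ± 178 in Tan I.

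PRPF8, the scaffold of the catalytic centre, was at 9183, 6422 and 8684 in DMSO and at 9700, 7471 and 6194 in Tan I. It was low in DMSO replicate 2 and Tan I replicate 3, the reverse of the Sm ring, and its log2 fold change was -0.06 (SE 0.21). PRPF40B, a U1-associated protein, was at 116, 79 and 102 in DMSO and at 121, 73.8 and 68.0 in Tan I. It had the lowest level per length of all 79 members and the largest negative log2 fold change, -0.20 (SE 0.28), over 51 to 130 reads a library.

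LSM proteins are kin of the Sm proteins, and 10 of 13 had a log2 fold change above 0, with a median of 0.11. LSM3, part of both the nuclear ring on U6 RNA and the cytoplasmic decay ring, had the largest value of the 79 members. It was at 1494, 2275 and 1653 in DMSO and at 1575, 2259 and 3338 in Tan I, with DMSO replicate 2 and Tan I replicate 2 at nearly the same level. The means were 1807 ± 413 and 2390 ± 889 (SD, n = 3), and the log2 fold change of 0.36 had an SE of 0.28 and a 95% CI of -0.30 to 1.02 (unadjusted p = 0.242, adjusted p = 0.999, limma). LSM7, shared by the same rings, had the highest level per length, 3538 ± 537 normalized counts per kilobase in DMSO (SD, n = 3) and 4029 ± 1304 in Tan I.

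LSM8, which is specific to the nuclear ring, and LSM1, which is specific to the decay ring, had log2 fold changes of 0.05 (SE 0.12) and 0.11 (SE 0.24). LSM10 and LSM11 belong to the U7 particle that trims histone mRNAs, and their values were 0.11 (SE 0.25) and -0.03 (SE 0.17). LSM14B, an RNA-binding protein of cytoplasmic granules, was at 1828, 1797 and 1860 in DMSO and at 1698, 1787 and 1792 in Tan I. The groups did not overlap, but the closest values, 1797 and 1792, were nearly equal and the log2 fold change was -0.06 (SE 0.10). Without Tan I replicate 3 the LSM median turned to -0.03.

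The 11 SRSF genes had a median log2 fold change of 0.03, with 7 above 0, and the narrowest spread of the larger families. In 10 of 11 the 95% CI lay within 0.5 log2 units either way. SRSF11 was at 12536, 11921 and 12507 in DMSO and at 11821, 11239 and 11046 in Tan I, with every Tan I value below every DMSO value. The means were 12321 ± 347 and 11369 ± 403 (SD, n = 3), and the log2 fold change was -0.12 (SE 0.11, 95% CI -0.38 to 0.14, adjusted p = 0.999, limma). SRSF6 had the lowest value of the family, -0.17 (SE 0.12), at 7449, 6352 and 7092 in DMSO and at 6225, 6620 and 5769 in Tan I. SRSF3, which acts in splicing and mRNA export, had the highest, 0.14 (SE 0.12), at 3774, 3428 and 4029 in DMSO and at 3669, 4286 and 4410 in Tan I.

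SRSF1, the founding SR protein, had a log2 fold change of 0.12 (SE 0.12), and SRSF2, which is recurrently mutated in myeloid disease, one of 0.06 (SE 0.18). SRSF5 had the highest level per length, 14205 ± 1130 normalized counts per kilobase in DMSO (SD, n = 3) and 14998 ± 1282 in Tan I. The SRSF median was -0.03 after quantile normalization and with equal library totals, and -0.04 without Tan I replicate 3.

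The 20 HNRNP genes had a median log2 fold change of 0.09, with 15 above 0 and 5 below. HNRNPA2B1, which packages pre-mRNA and sorts RNAs, was at 36582, 35456 and 36794 in DMSO and at 39092, 39099 and 39857 in Tan I. Every Tan I value was above every DMSO value, and the gap between the groups was wider than the range within either. The means were 36277 ± 719 and 39349 ± 440 (SD, n = 3), and the log2 fold change was 0.12 (SE 0.13, 95% CI -0.19 to 0.42, unadjusted p = 0.398, adjusted p = 0.999, limma). The log2 range was only 0.053 in DMSO and 0.028 in Tan I, so this SE was set largely by the variance of other genes. HNRNPH3 was at 9444, 9095 and 9439 in DMSO and at 8697, 8975 and 8819 in Tan I, without overlap, and its log2 fold change was -0.08 (SE 0.10).

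HNRNPA1, an exon repressor, had the highest level per length of all 79 members, 14924 ± 693 normalized counts per kilobase in DMSO (SD, n = 3) and 16150 ± 1963 in Tan I. It was followed by HNRNPH1, SRSF5, HNRNPC and HNRNPA2B1, and HNRNPH1 and SRSF5 did not differ from it beyond their spread in DMSO. Its counts of 52987, 58003 and 56640 in DMSO and 53672, 59454 and 68270 in Tan I gave a log2 fold change of 0.11 (SE 0.16), which was -0.02 after quantile normalization. HNRNPA1 has 74 annotated pseudogenes and HNRNPC has 9, and the related gene HNRNPA1L2 was listed at 216 to 369 normalized counts. HNRNPC, which binds uridine tracts, was at 31686, 41294 and 35205 in DMSO and at 31090, 36957 and 47097 in Tan I (log2 fold change 0.08, SE 0.20).

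HNRNPH1 and HNRNPH2 encode nearly the same protein and ran in opposite directions across the libraries. HNRNPH1 was at 37910, 25124 and 35219 in DMSO and at 35887, 32143 and 24190 in Tan I, lowest in DMSO replicate 2 and Tan I replicate 3. HNRNPH2 was at 1670, 2061 and 1782 in DMSO and at 1794, 2139 and 2403 in Tan I, highest in the same 2 libraries within its groups. Their log2 fold changes were -0.09 (SE 0.22) and 0.20 (SE 0.15), neither past its spread, and the difference between them was not tested. HNRNPU, a nuclear scaffold protein, had the lowest value of the family, -0.19 (SE 0.24), at 21649, 14549 and 18275 in DMSO and at 21462, 14823 and 12210 in Tan I. HNRNPUL2, a related protein, had the highest, 0.24 (SE 0.19), at 1839, 2394 and 2070 in DMSO and at 1969, 2468 and 3089 in Tan I.

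In most members, as in most genes tested, the range within each group was wider than the difference between the group means. A gene was put in 1 of 3 classes by whether DMSO replicate 2 and Tan I replicate 3 were both the highest of their group, both the lowest, or neither, a pattern noticed after the values were seen and given without a test. Both were highest in 45 of 79 members (57.0%) and in 35.0% of all genes tested, and both were lowest in 21 members (26.6%) and in 32.1% of all genes. All 7 Sm ring genes and all 4 U1 and U2 specific genes were in the first class, as were 9 of 13 LSM genes. The SRSF genes were evenly divided, with 5 in each class, the PRPF genes likewise with 5 in each, and HNRNP had 10 and 6. U2AF1, PRPF8, PRPF4B, HNRNPH1 and HNRNPU were in the second class.

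Averaged over its 7 genes, the Sm ring stood at -0.35, 0.18 and -0.13 in DMSO replicates 1 to 3 and at -0.26, 0.07 and 0.50 in Tan I replicates 1 to 3, as log2 values relative to the mean of the 6 libraries. The difference between the group means of 0.20 was smaller than the range within DMSO (0.53) and within Tan I (0.76). The HNRNP mean moved far less, within 0.03 log2 units in DMSO and 0.10 in Tan I, and the SRSF mean within 0.02 and 0.09. Single genes varied more than these means, in which opposite movements offset each other. The median range of a gene within DMSO and within Tan I was 0.37 and 0.32 in HNRNP and 0.23 and 0.24 in SRSF. MALAT1, NEAT1 and KCNQ1OT1, RNAs that stay in the nucleus, were lowest in both groups in the libraries where the Sm ring was highest. KCNQ1OT1 was at 3269, 696 and 2359 in DMSO and at 3601, 1656 and 837 in Tan I, and its part in the result was not tested. In bulk RNA, fewer cells of a type and less RNA per cell cannot be told apart.

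**Figure D4:**
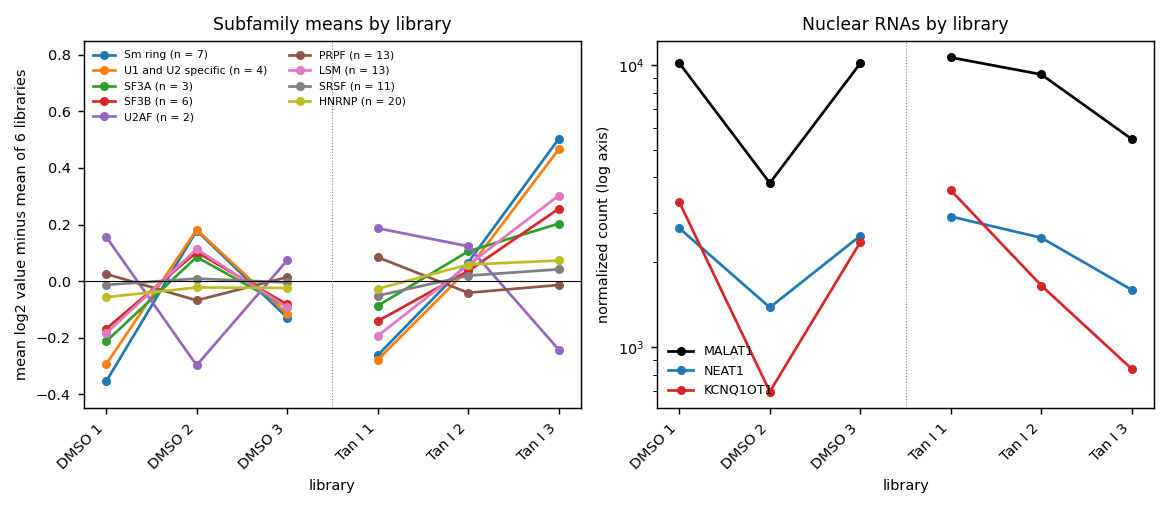
Left, mean over each subfamily of the log2 values relative to the mean of the 6 libraries (y axis) in each library (x axis). Right, normalized counts of 3 nuclear RNAs (log axis) in the same libraries. Lines only join points of the same set, the Sm ring peaks at 0.50 in Tan I replicate 3 and at 0.18 within DMSO in replicate 2, and MALAT1, NEAT1 and KCNQ1OT1 are lowest in these 2 libraries.

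Transcript length differed between the 2 classes. The median canonical transcript was 2226 bases in the 45 members highest in both libraries and 4372 bases in the 21 members lowest in both, against 2105 and 3792.5 bases for all genes tested. Across the 79 members the Spearman correlation of length with the deviation from the group mean was -0.45 in DMSO replicate 2 and -0.55 in Tan I replicate 3, and 0.54 and 0.60 in replicate 1 of each group. Over all genes with a length the same values were -0.15, -0.25, 0.20 and 0.29. The Tan I minus DMSO difference itself ran with length at -0.39 in the members and -0.21 in all genes. These are correlations across genes of the same libraries, which share depth and RNA quality and are not independent replicates. U2AF1, with a canonical transcript of only 945 bases, had the lowest deviation of the 79 members in both of these libraries.

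**Figure D5:**
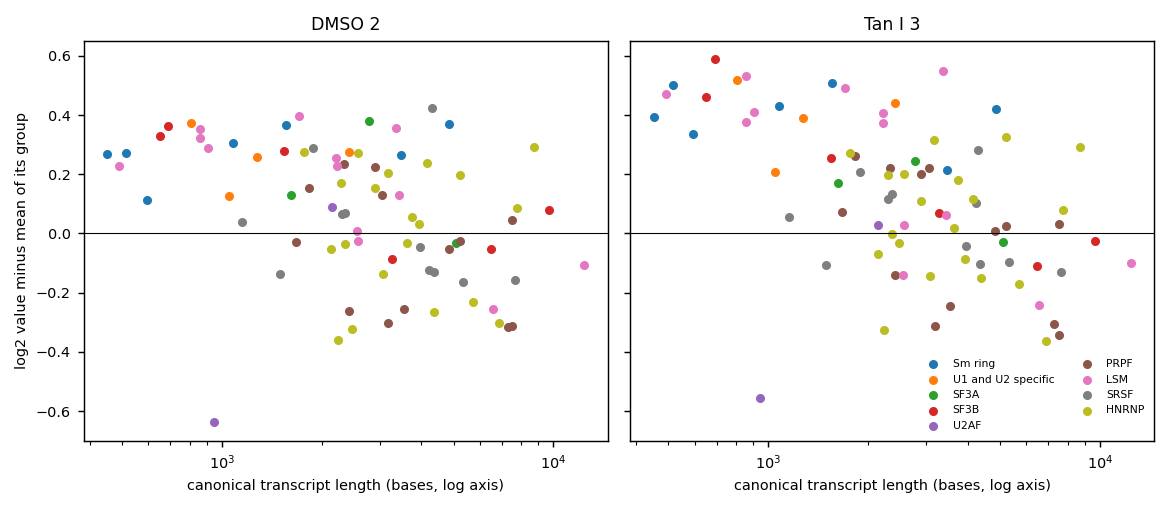
Log2(normalized count + 1) minus the mean of its group (y axis) against canonical transcript length (x axis, bases, log axis) for the 79 members, in DMSO replicate 2 (left) and Tan I replicate 3 (right), coloured by subfamily. Short transcripts such as those of the Sm ring lie above 0 and long ones mostly below, with Spearman correlations of -0.45 and -0.55, and U2AF1 lies lowest in both panels.

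None of the splicing genes outside the 79 members passed the test either. Of 130 genes on 10 lists drawn from general knowledge, 129 were tested, and limma called 0 by the looser rule and 0 by adjusted p, with 0 at an unadjusted p of at most 0.05. The shares of all genes tested were 2.42, 0 and 2.43%. The looser rule called 0 of them with edgeR, against 2.42% of all genes, and 1 (0.78%) with DESeq2, against 2.49%. Their log2 fold changes were above 0 in 89 of 129, with a median of 0.07, and the libraries did not overlap in 9 (6.98%, against 7.89% of all genes tested), with 7 higher and 2 lower in Tan I. In 65 of them DMSO replicate 2 and Tan I replicate 3 were both highest and in 40 both lowest. The 15 snRNP assembly genes, which load the Sm ring, had 13 in the first class and none in the second. The 15 SR-related genes had 3 in the first class and 11 in the second, a median log2 fold change of -0.0035 among them, and their median canonical transcript was 4460 bases against 2634 for the assembly genes. Not every list ran with length in this way. The 7 SR kinases, with a median of 2504 bases, had 0 in the first class and 3 in the second. The 9 minor spliceosome genes, with a median of 1808 bases, had 5 and 3.

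The smallest unadjusted p among these genes belonged to CLK3, a kinase that phosphorylates SR proteins, a gene named after its values were seen. It was at 5684, 4913 and 6037 in DMSO and at 6473, 6965 and 6533 in Tan I, without overlap, and its log2 fold change of 0.27 (SE 0.12, 95% CI -0.02 to 0.55) did not pass (unadjusted p = 0.0604, adjusted p = 0.999, limma). TRA2A, an SR-related splicing activator also named afterwards, was at 3180, 2694 and 3201 in DMSO and at 3339, 3913 and 3693 in Tan I (log2 fold change 0.27, SE 0.12, unadjusted p = 0.0615, adjusted p = 0.999, limma). Neither passed either rule.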

How the data were processed

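NB4 cells were kept for 3 days with DMSO or with Tan I at 10 μM. Total RNA was extracted with TRIzol and sequenced as paired reads of 150 bases on an Illumina NovaSeq. According to the study's methods and the submitters' processing notes, reads were aligned to GRCh38 with STAR, reads mapping to several places were removed, and genes were counted with featureCounts. Versions, annotation release and strand setting are not given in the sources used here, so overlapping and antisense genes may share reads. The authors deposited 1 table of 18625 genes whose per-library signal values are counts divided by a size factor per library (normalized counts). Beside these, the deposited columns give the authors' mean, log2 fold change with its error, Wald score and p-values from DESeq2, and these comparison columns were not used. All values (100%, within 0.01) were whole multiples of 1 read, so reads were recovered as 21502760 to 31679138 per library, and no 2 libraries agreed within counting noise (chi-square of at least 5.92 per gene).

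Groups and replicate numbers came from the labels. The test was limma 3.58.1 (R 4.3.3) with a mean-variance trend on log2(normalized count + 1), for the 16887 genes averaging 10 or more over the 6 libraries, with Benjamini-Hochberg adjustment over all of them. Fold changes are on that scale and understate the change of low genes. The difference between the group means of the log2 values of each member was also tested by an exact two-sided permutation test. Overlap of the groups was counted without a test. Alternatives were pseudocounts of 0.1 and 10, no filter or a mean of 50, quantile normalization, an equal total, limma without the trend, edgeR 4.0.16 and DESeq2 1.42.0 on recovered reads, a replicate block, the first principal component as a covariate, and leaving out each library. The fits were tested on simulated data in which each gene varied independently. No factor shared by the genes of a library was simulated, so that check does not cover the split between libraries. Gene positions, pseudogenes and canonical transcripts came from GENCODE 44 (99.6% of the listed genes matched), and levels per length use the canonical transcript.

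Members, gene lists and tests were chosen with earlier results of these data known. The rule for named genes took members called by either rule, members whose groups did not overlap, the member of highest level per length and those of largest and smallest log2 fold change in each subfamily, members failing the filter, and genes with near-identical copies. Other members are named only for their role. Values of 1 member and 1 marker gene are not reported here by name.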

Additional observations from a re-analysis of the deposited data

How the results depend on the processing

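Under 17 alternatives 0 members reached an adjusted p of at most 0.05, and the lowest was 0.115 (PRPF39, with the score on the first principal component as covariate). With that covariate the looser rule called 1 member (PRPF39), 6 of the other splicing genes and 1496 (8.86%) of all genes. The other splicing genes also gave 1 call with DESeq2 and 1 with the replicate block, 0.78% each, against 2.49 and 2.06% of all genes. Leaving out 1 library gave 0 to 6 members, 0 to 5 other splicing genes and 160 to 1496 of all genes (408 with every library), the highest each time without Tan I replicate 1. The count of members whose groups did not overlap was 0 with an equal total, against 8.30% of all genes. Without 1 library it was 6 to 19 (14 without DMSO replicate 2, 19 without Tan I replicate 1, 11 without Tan I replicate 3). These 3 counts were 17.7, 24.1 and 13.9% of the members, against 21.9, 26.5 and 15.4% of all genes.

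The HNRNP median of 0.09 was 0.0148 after quantile normalization, 0.0342 with an equal total, 0.0352 with the covariate and 0.0237 to 0.132 without 1 library. The PRPF median of 0.02 was -0.0420 with an equal total. The SRSF median of 0.03 was -0.0293, -0.0319 and -0.0157 under the same 3 settings, and -0.0397 to 0.0924 without 1 library. An equal total moved the median of all genes to -0.06. The causes were not tested.

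Among 35 named members, 11 changed sign in at least 1 alternative and 24 in none. The replicate block called 0 members, against 2.06% of all genes. Same-numbered libraries deviated together for replicate 1 (correlation 0.75) but not for replicates 2 and 3 (-0.09 and -0.45), so the numbers were not taken to pair the samples. With 3 libraries a group, the 95% CI lay within 0.5 log2 units either way in 39 of 79 members (49.4%), against 28.7% of all genes tested.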
